A study of Mus musculus with 26 samples.

Results

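The comparison described here is that of mice studied after withdrawal from saline self-administration with mice studied without withdrawal, both without cocaine. It used 8 of the 26 libraries of the series: 5 immunopurified libraries labelled saline self-administration with withdrawal and 3 labelled saline self-administration alone, chosen by their titles. All came from the dorsal striatum of adult Drd2-TRAP CP101 mice, a line kept on an FVB/N-Swiss Webster background crossed for at least 9 generations to C57BL/6. In this line the regulatory sequence of Drd2 drives an EGFP-tagged ribosomal protein, Rpl10a, so the controls carried the transgene too, and ribosome-bound RNA was pulled down with antibodies against EGFP (translating ribosome affinity purification, TRAP). All mice of these 8 libraries worked for intravenous saline in place of cocaine. The sources used here do not say how long withdrawal lasted, which sex the mice were, or whether a library is 1 animal or a pool, so each p-value reflects only the spread over libraries, which may be technical. The wider study also sequenced immunopurified RNA after non-escalating cocaine intake (4 libraries), after escalating intake (2) and after withdrawal from non-escalating intake (9), and 3 input libraries of whole tissue RNA.

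The withdrawal libraries fell into 2 library sets by their numbers. Set A held replicate 1 (number 2077, labelled as a copy of a lower number) and replicate 2 (number 1797), and set B held 3 libraries numbered 1826, 1827 and 1828. The 3 saline libraries are also labelled as copies of lower numbers, and numbers 1797, 1826, 1827 and 1828 are not. Among the immunopurified libraries, those labelled as copies were the ones with the longer gene table. The gene table of set A replicate 2 lists 32531 genes, as in set B, and those of all other set A libraries list 32657. For that library, withdrawal cannot be told apart from gene table and copy label within set A, and the set difference does not correct for them. All 3 saline libraries without withdrawal (replicates 1, 3 and 4) were in set A. For the set B libraries, withdrawal and set therefore cannot be told apart within the saline groups alone, and the difference between sets was taken from the cocaine withdrawal libraries, of which 4 were in set A and 5 in set B. Results are given for all 5 withdrawal libraries, for set A, and for set B with that set difference removed or kept. These values share the same 3 saline libraries. A result was described as agreeing only where set A and both set B values had the same sign.

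Neurons of the striatum that express the dopamine D2 receptor form the indirect pathway of the basal ganglia, make enkephalin (Penk) and carry the adenosine A2a receptor (Adora2a). Cholinergic interneurons of the striatum express Drd2 as well, so a Drd2-driven tag can label both. Lypd1, the gene with the lowest p here, encodes a small membrane-anchored protein of the Ly6 family, also known as Lynx2. Such prototoxins bind nicotinic acetylcholine receptors and dampen their responses.

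Gene counts in the 3 saline libraries were 11449936, 8666909 and 10801527. The set A withdrawal libraries held 14712619 (replicate 1) and 3279457 (replicate 2), and the set B libraries 4667440, 4907506 and 3578445. Reads that aligned outside genes made up 27.0% to 47.4% of the uniquely aligned reads in saline, 31.9% to 46.4% in set B, and 52.7% and 70.7% in set A withdrawal replicates 2 and 1. The group means were 39.0% ± 10.7 (SD, n = 3) and 47.5% ± 15.3 (SD, n = 5), with p = 0.5 in a two-sided exact permutation test whose smallest possible p was 0.0357. The difference of 8.54 percentage points was 2.75 without withdrawal set A replicate 1 and 2.54 without saline replicate 3, and ran up to 12.7 with any other library left out. Both set A withdrawal libraries thus stood apart from every saline library in this measure, and the set A and set B values of the main results are given below. Drd2 itself stood at 2974, 4632 and 2548 CPM (gene counts scaled to a common library size) in saline, against 494 CPM in the saline input library, and at 807 and 1764 CPM in set A and 2062, 2466 and 2997 CPM in set B after withdrawal.

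**Figure D1:**
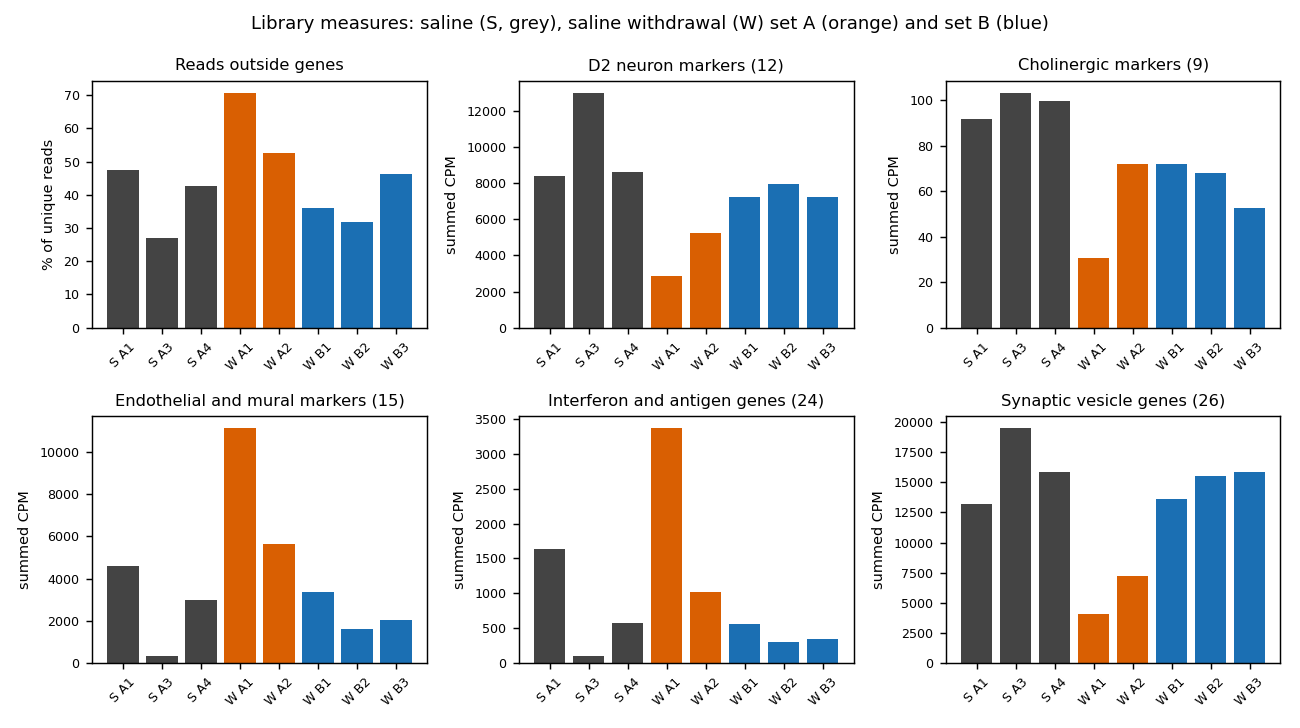
Library measures in the 3 saline libraries (grey) and the 5 saline withdrawal libraries of set A (orange) and set B (blue). Bars give the percent of uniquely aligned reads outside genes, or the summed CPM of a gene list whose number of tested members stands in the panel title. Set A withdrawal replicate 1 had the highest share outside genes (70.7%), the highest endothelial sum (11110 CPM) and the lowest D2 neuron sum (2849 CPM).

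In the joint fit of all 23 immunopurified libraries, no gene of 16908 passed an adjusted p of 0.05 (edgeR quasi-likelihood test, Benjamini-Hochberg), which is 0% in either direction. The lowest adjusted p was 0.782. At an unadjusted p under 0.05, 381 genes were higher after withdrawal (2.25%) and 503 were lower (2.97%). Leaving out single libraries moved these counts: to 176 higher and 202 lower without withdrawal set A replicate 1, to 135 and 231 without saline replicate 3, to 237 higher without saline replicate 4, and to 322 lower without withdrawal set A replicate 2. Limma voom also called 0 genes. DESeq2 called 6 higher and 1 lower, 7 of the 16812 genes it gave an adjusted p (0.0416%), and the gene called lower was Lypd1. All 5 withdrawal libraries lay above all 3 saline libraries for 458 genes (2.71%) and below them for 670 (3.96%). With any 1 of the 8 libraries left out, the counts were 585 to 1227 above and 821 to 1530 below, as fewer libraries leave less room for overlap. The median log2 fold change of all genes was 0.08, and 0.22 with RLE size factors in place of TMM, so the zero point of every fold change below moves by about that difference between scalings.

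The 2 sets were then taken apart. In the set A libraries against saline, 2802 genes had an unadjusted p under 0.05 (16.6%), with 691 higher and 2111 lower. In set B with the set difference removed the number was 454 (2.69%), and 0 genes passed the adjusted threshold in either. With the set difference kept, 1 gene passed in set B (0.00591%), Adnp, described below. The difference between the set A and set B effects had an unadjusted p under 0.05 for 2512 genes (14.9%), and 0 at the adjusted threshold. The sign was the same in set A and in both set B values for 5790 of all 16908 genes (34.2%), and for 666 of the 884 at an unadjusted p under 0.05 (75.3%). Both set values use the same 3 saline libraries, so these counts only apply the condition of agreement and measure nothing further.

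Lypd1 was lower in every withdrawal library. It lies on chromosome 1, from 125867622 to 125913101 (GRCm38, GENCODE M21). The saline libraries held 22.9, 26.1 and 25.9 CPM, the set A withdrawal libraries 4.65 and 2.49 CPM, and the set B withdrawal libraries 7.6, 8.88 and 8.0 CPM. No withdrawal value came near the saline range, and both sets showed it. The means were 25.0 ± 1.81 CPM (SD, n = 3) and 6.33 ± 2.67 CPM (SD, n = 5). The log2 fold change was -2.18 ± 0.45 (SE), with an unadjusted p of 7.7e-05 and an adjusted p of 0.782 in edgeR, so it did not pass the threshold. DESeq2 gave -2.04 with an adjusted p of 0.000529, and limma voom an adjusted p of 0.083. Within set A the log2 fold change was -2.77 (edgeR adjusted p = 0.105). In set B it was -1.46 with the set difference removed (edgeR unadjusted p = 0.0113) and -1.61 with it kept. Lypd1 passed the adjusted threshold in none of these 3 values. The set A effect minus the set B effect, with the set difference removed, was -1.31 (edgeR unadjusted p = 0.0341, adjusted p = 0.298). In set B with the set difference removed, Lypd1 ranked 68 by p. Leaving out any 1 of the 8 libraries kept it between -1.84 and -2.27.

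Lypd1 was also compared with the cocaine groups. It stood at 21.3 ± 5.63 CPM (SD, n = 4) after non-escalating intake and at 12.7 and 27.1 CPM in the 2 escalating libraries. After withdrawal from non-escalating intake the 9 libraries ran from 10.8 to 20.3 CPM, with a median of 15.1 CPM. By mean level the order was saline, non-escalating, escalating, non-escalating withdrawal and saline withdrawal, and the first 4 groups overlapped their neighbours in this order. Every saline withdrawal library lay below all 18 other immunopurified libraries, and Lypd1 was the only 1 of 16908 genes for which this held (0.00591%). Of genes above all 18 there were 2 (0.0118%), Tmem128 and Ifi27l2a, at no more than 4.65 and 5.34 CPM. These genes were picked after their values were seen. The withdrawal difference after cocaine was -0.62 on the log2 scale, and the interaction test of the 2 differences gave an unadjusted p of 0.00605 and an adjusted p of 1 in edgeR. In this interaction test 344 genes (2.03%) were under 0.05 before adjustment and 0 after it.

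The 3 input libraries have 1 library per group, so they allow no test. The saline withdrawal input was in set B with the shorter gene table and the other 2 were in set A with the longer one, so withdrawal and set cannot be told apart in the inputs. Values are given with exact Poisson intervals, which cover counting error only. Input CPM are not TMM-scaled, whereas CPM of the 8 immunopurified libraries are, with factors of 0.921 to 1.23, so the 2 scales differ somewhat. Lypd1 was at 36.3 CPM (95% interval 31.6 to 41.4) in the saline input and 24.6 CPM (20.4 to 29.3) in the saline withdrawal input, and at 21.2 CPM (18.6 to 24) in the cocaine input. The saline input was above the 22.9 to 26.1 CPM of the immunopurified saline libraries, and the withdrawal input was above the 2.49 to 8.88 CPM of the immunopurified withdrawal libraries. Drd2 was at 361 CPM in the saline withdrawal input and 494 CPM in the saline input. In bulk RNA, fewer cells that express a gene and less RNA per cell cannot be told apart.

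**Figure D2:**
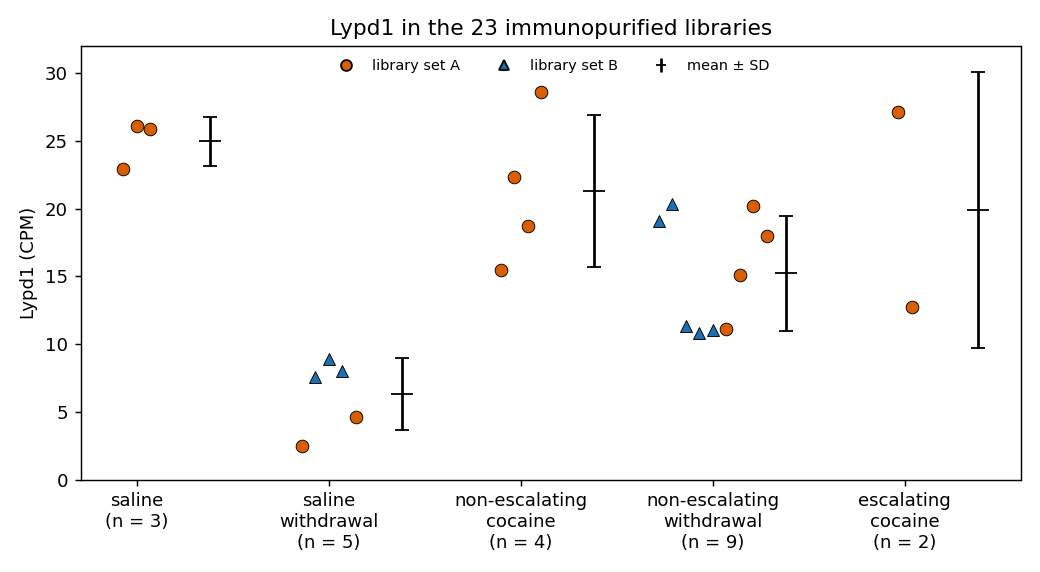
Lypd1 in CPM in each of the 23 immunopurified libraries, by group, with circles for library set A, triangles for set B, and the mean ± SD of each group to its right. The 5 saline withdrawal libraries lie between 2.49 and 8.88 CPM, and the lowest of the other 18 is at 10.8 CPM.

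Among the relatives of Lypd1 and the nicotinic receptors, 11 of 17 listed genes were expressed enough to test. Their median log2 fold change was -0.50 (all genes 0.08), with set A at -1.10 and set B at 0.52 (set difference removed) and -0.24 (kept). All 5 withdrawal libraries were below saline for Lypd1, Lynx1 and Chrna4, 3 of 11 against 3.96% of all genes. Lynx1, the founding prototoxin, stood at 472, 579.7 and 452 CPM in saline, 84.9 and 282 CPM in set A and 326, 373 and 335 CPM in set B after withdrawal. Its log2 fold change was -0.50 ± 0.54 (SE, unadjusted p = 0.365 in edgeR). The set B value was 0.52 with the set difference removed and -0.54 with it kept. Chrna4, a nicotinic receptor subunit, stood at 70.9, 123 and 80.3 CPM in saline, 18.8 and 49.9 CPM in set A and 37.2, 61.5 and 32.6 CPM in set B. Both genes were named after their values were seen, and both had a positive set B value when the set difference was removed. Ric3, a chaperone of nicotinic receptors, was at 50.1, 65.7 and 45.7 CPM in saline, 26.4 and 23.95 CPM in set A and 36.4, 47.1 and 71.2 CPM in set B, so its groups overlapped (log2 fold change -0.95 ± 0.34 SE, unadjusted p = 0.00981). Lypd6b was above saline in every withdrawal library but never over 1.45 CPM. Of the 11 genes, 4 had a positive log2 fold change. At an unadjusted p under 0.05, 2 were lower, Lypd1 and Ric3, and 1 was higher, Ly6e. Ly6e was at 217, 55.5 and 132 CPM in saline, 434 and 367 CPM in set A and 232, 102 and 111 CPM in set B. Its groups overlapped (log2 fold change 1.41 ± 0.61 SE, unadjusted p = 0.0307 in edgeR).

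The other genes with the lowest p and the same sign in both sets were also not called at the adjusted threshold, and each had an adjusted p of 0.782 in edgeR. Of the 12 lower genes taken by rule, 6 had no overlap between the groups: Lypd1, Phf5a, Sox2ot, Abcc8, Zfp956 and Ttc8 (all genes 3.96%). The genes were picked for low p in these same libraries, which favours separation, so this count is no further evidence.

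Phf5a (chromosome 15, 81864520 to 81871911) encodes a small subunit of the SF3b complex of the spliceosome. It stood at 22.7, 46.5 and 33.3 CPM in saline, 13.9 and 11.7 CPM in set A and 11.9, 12.4 and 8.86 CPM in set B. All 5 withdrawal libraries were below the lowest saline library, and the sets lay together. The log2 fold change was -1.61 ± 0.40 (SE), with -1.41 in set A and -1.94 and -1.62 in set B with the set difference removed and kept. The difference after cocaine withdrawal was -1.23, and the interaction had an unadjusted p of 0.452. In the inputs Phf5a was at 16.4 CPM (95% interval 13.3 to 20.0) in saline and 6.39 CPM (4.37 to 9.02) in saline withdrawal, with 5.20 CPM (3.97 to 6.70) in the cocaine input.

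Abcc8 (chromosome 7, 46104523 to 46180033) encodes the sulfonylurea receptor SUR1, the regulatory subunit of ATP-sensitive potassium channels. Its saline libraries were at 46.3, 22.2 and 17.6 CPM, the set A withdrawal libraries at 6.55 and 3.49 CPM and the set B withdrawal libraries at 3.70, 5.37 and 3.71 CPM. The highest withdrawal library was well below the lowest saline library, and saline replicate 1 was far above the other saline libraries. The log2 fold change was -2.21 ± 0.63 (SE), with -2.49 in set A and -1.79 and -2.75 in set B. After cocaine the withdrawal difference was 0.04, and the interaction had an unadjusted p of 0.00602 and an adjusted p of 1 in edgeR. In the inputs Abcc8 was at 13.2 CPM (10.5 to 16.5) in saline and 8.58 CPM (6.21 to 11.6) in saline withdrawal, 2 intervals that overlap.

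Zfp956 (chromosome 6, 47953390 to 47965300), a gene of a zinc finger protein, stood at 15.4, 11.8 and 14.4 CPM in saline, 3.25 and 3.24 CPM in set A and 5.55, 4.13 and 4.86 CPM in set B. Within each group the libraries lay close together, and the groups were far apart. The log2 fold change was -1.89 ± 0.55 (SE), with -2.09, -1.61 and -1.51 in the 3 set values. After cocaine the difference was 0.09, and the interaction had an unadjusted p of 0.00538 and an adjusted p of 1 in edgeR. The inputs, which are of different sets, were at 6.02 CPM (4.22 to 8.33) in saline and 0.798 CPM (0.218 to 2.04) in saline withdrawal, and the cocaine input was at 19.3 CPM (16.9 to 22.1).

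Sox2ot, a long noncoding RNA gene that overlaps Sox2, and Ttc8, a subunit of the BBSome that carries membrane proteins to cilia, made up the rest. Sox2ot was at 15.95, 16.1 and 11.7 CPM in saline, 2.63 and 2.74 CPM in set A and 8.22, 3.72 and 10 CPM in set B. Ttc8 was at 22.1, 31.3 and 21.2 CPM in saline, 3.92 and 6.74 CPM in set A and 13.98, 16.3 and 12.9 CPM in set B. For both, the set A withdrawal libraries were the lowest of all, apart from the set B libraries. The log2 fold changes were -2.11 ± 0.60 for Sox2ot and -1.66 ± 0.53 for Ttc8 (SE). With the set difference removed they were -1.68 and -0.97 in set B. After cocaine the difference was -1.16 for Sox2ot and 0.15 for Ttc8, with unadjusted interaction p of 0.188 and 0.00723 and an adjusted p of 1 for both in edgeR.

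The 6 other lower genes overlapped between the groups: Crcp, Dlk1, Pithd1, Dcx, Sdhd and Pgk1. Their log2 fold changes ran from -1.10 (Sdhd) to -3.31 (Dlk1). The set A values ran from -1.18 to -2.87, and those of set B from -0.89 to -3.96 with the set difference removed and from -0.12 to -1.12 with it kept. Dlk1, an imprinted gene of a Notch-like membrane protein, stood at 17.0, 5.64 and 12.8 CPM in saline, 1.12 and 2.25 CPM in set A and 5.14, 2.48 and 8.86 CPM in set B, so saline replicate 3 lay within the set B range. Dcx, which encodes the microtubule protein doublecortin, was at 21.2, 22.6 and 10.6 CPM in saline, 5.49 and 2.25 CPM in set A and 17.9, 22.1 and 10 CPM in set B, so set B lay almost wholly within the saline range. Its set B value was -1.37 with the set difference removed and -0.12 with it kept. Pgk1, a glycolytic enzyme, and Sdhd, a subunit of respiratory complex II, were at -1.76 and -1.18 in set A, at -0.89 and -0.99 in set B with the set difference removed and at -0.43 and -0.30 with it kept.

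Of the 12 higher genes taken by rule, 4 had no overlap between the groups: Man2b2, Lrp6, N4bp2 and Ric1 (all genes 2.71%). These genes too were picked for low p in the same libraries, so their count is no further evidence. Man2b2, an alpha-mannosidase, stood at 13.3, 9.28 and 10.7 CPM in saline, 67.8 and 23.7 CPM in set A and 16.2, 13.4 and 18.01 CPM in set B. Set A replicate 1 was far above the rest, and the lowest set B library passed the highest saline library by little. The log2 fold change was 1.94 ± 0.50 (SE), with 2.05 in set A and 1.74 and 0.52 in set B with the set difference removed and kept.

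Lrp6 (chromosome 6, 134446476 to 134566965), a co-receptor for Wnt ligands, was at 151, 88.3 and 121 CPM in saline, 249.5 and 239 CPM in set A and 187, 159.6 and 260.1 CPM in set B. Both sets lay above all saline libraries, with a log2 fold change of 0.88 ± 0.27 (SE) and values of 1.02 in set A and 0.63 and 0.75 in set B. Ric1 (chromosome 19, 29522282 to 29606829), part of a complex that activates Rab6 at the Golgi, was at 52.4, 46.6 and 55.4 CPM in saline, 135 and 93.5 CPM in set A and 88.0, 85.5 and 114 CPM in set B. It had the tightest saline group of the 4 and a log2 fold change of 1.01 ± 0.33 (SE), with 1.15, 0.78 and 0.89 in the 3 set values. N4bp2 was at 2.45, 4.39 and 5.57 CPM in saline, 12.1 and 21.2 CPM in set A and 9.87, 8.88 and 8.0 CPM in set B (log2 fold change 1.76 ± 0.57 SE). After cocaine the withdrawal difference was 0.11 for Lrp6, 0.36 for Ric1, 0.92 for Man2b2 and 1.13 for N4bp2. The unadjusted interaction p of these genes was 0.0237, 0.109, 0.0906 and 0.351, and the adjusted p was 1 for each in edgeR.

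Among the higher genes that overlapped were Pcdhga8, Lrrc8c, Sash1, Lamp2, Stk35 and Tgfbr3, with log2 fold changes from 0.82 (Stk35) to 1.37 (Lrrc8c). Their values ran from 0.73 to 1.71 in set A, and in set B from 0.71 to 1.14 with the set difference removed and from 0.23 to 0.81 with it kept. Lrrc8c, a subunit of volume-regulated anion channels, was at 24.6, 17.4 and 25.9 CPM in saline, 82.5 and 65.6 CPM in set A and 40.9, 25.0 and 17.4 CPM in set B, so set A stood above saline and 2 of the 3 set B libraries did not. Lamp2, a lysosomal membrane protein, was higher in 4 of 5 withdrawal libraries, and set B replicate 3 (20.9 CPM) lay below every saline library. The remaining 2, Adnp and Zfp36, followed the gene table of the library rather than the group. Adnp stood at 0.0898 to 0.253 CPM in all 3 saline libraries and at 0.112 CPM in withdrawal set A replicate 1, which share the longer gene table, and at 139.7 to 194 CPM in the 4 withdrawal libraries with the shorter gene table. Zfp36 was at 0 in the first 4 and at 5.37 to 41.4 CPM in the others. Of the 23 immunopurified libraries, those with the shorter table were above all with the longer one for 11 genes, with means more than 4-fold apart, and the reverse held for 9 genes. Of these 20 genes, 9 had an unadjusted p under 0.05 in the withdrawal comparison. Of the 6 genes that DESeq2 called higher, Adnp, Zfp36 and mKIAA0217 followed the gene table, and 2700069I18Rik, AK166159 and Cd3e were at 0 in 6 or 7 of the 8 libraries.

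**Figure D3:**
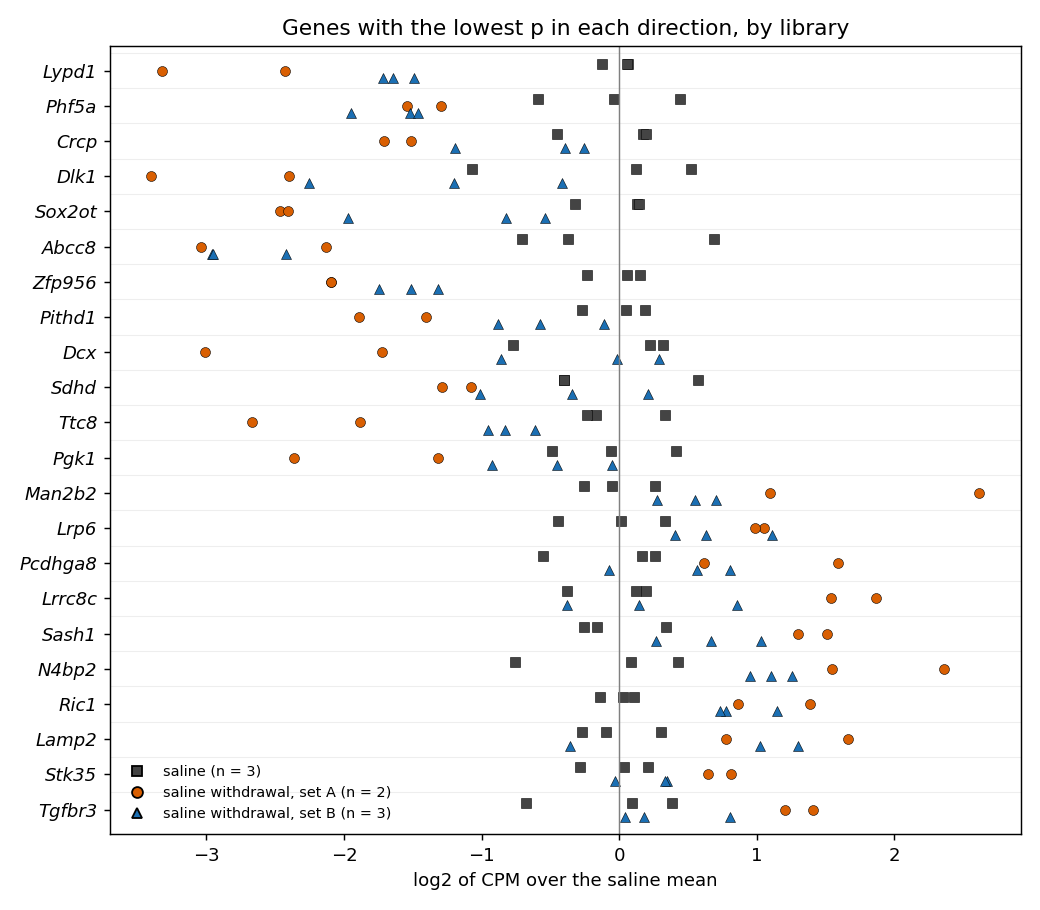
Level of each gene taken by rule (Adnp and Zfp36 left out) in each of the 8 libraries, as log2 of its CPM over the mean of the 3 saline libraries, with squares for saline, circles for set A and triangles for set B withdrawal libraries. Lypd1, Phf5a, Abcc8 and Zfp956 have all 5 withdrawal libraries well left of saline, and Dcx has set A alone there.

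Most markers of the neurons that the line tags, 10 of 12, had a negative log2 fold change in set A. Of 12 D2 neuron markers, all tested, none passed the adjusted threshold, and 2 had all withdrawal libraries below saline, Adora2a and Sp9 (all genes 3.96%). Their summed level was 8402, 12980 and 8585 CPM in saline, 2849 and 5216 CPM in set A and 7239, 7920 and 7213 CPM in set B. The groups did not overlap, but set B lay close under saline, and the two-sided exact permutation test gave p = 0.0357, or 0.357 adjusted over 20 library measures. The median log2 fold change of the 12 was -0.48 (all genes 0.08), with -1.39 in set A and 0.49 and -0.25 in set B with the set difference removed and kept. In the joint fit 3 of the 12 were positive, among them Upb1 (1.14) and Ptprm, which had the lowest p of the list. Ptprm was at 308, 186 and 204 CPM in saline, 685 and 412 CPM in set A and 234, 177 and 213 CPM in set B. Its log2 fold change was 0.87 ± 0.42 (SE, unadjusted p = 0.05 in edgeR), with 1.24 in set A.

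Adora2a, the adenosine receptor of indirect pathway neurons, stood at 1279, 1860 and 1234 CPM in saline, 142 and 623 CPM in set A and 897, 804 and 813 CPM in set B. It was below saline in all 5 withdrawal libraries, with a log2 fold change of -0.74 ± 0.65 (SE, unadjusted p = 0.268), of 0.44 in set B with the set difference removed and of -0.80 with it kept. Without withdrawal set A replicate 1 the log2 fold change was -0.13, and without replicate 2 of that set or without saline replicate 3 it was -0.48 and -0.54. Penk, the enkephalin precursor, stood at 3148, 4963 and 3662 CPM in saline, 967 and 1886 CPM in set A and 3339, 3572 and 2400 CPM in set B. Only set B overlapped saline, and the log2 fold change was -0.91 ± 0.50 (SE, unadjusted p = 0.0783). Drd2 had a log2 fold change of -0.40 ± 0.64 (SE) and Gpr6, an orphan receptor of D2 neurons, of -0.51 ± 0.69 (SE). In the joint fit both reversed without withdrawal set A replicate 1, to 0.10 and 0.13. In set B alone they were 0.65 and 0.82 with the set difference removed and -0.43 and -0.78 with it kept. Their direction thus depended on that library and on how the set difference was handled. Drd1, the receptor of direct pathway neurons, ran from 14.04 to 42.7 CPM in saline and from 15.01 to 63.5 CPM after withdrawal, with a log2 fold change of 0.30 ± 0.42 (SE).

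The set B values of Lypd1 and of the D2 neuron markers were set side by side. There the Lypd1 libraries were at 7.6 to 8.88 CPM against 22.9 to 26.1 CPM in saline, while Drd2 was at 2062 to 2997 CPM against 2548 to 4632 CPM and Penk at 2400 to 3572 CPM against 3148 to 4963 CPM. With the set difference kept, the log2 fold change in set B was -1.61 for Lypd1, -0.43 for Drd2, -0.34 for Penk, -0.78 for Gpr6, -0.80 for Adora2a and -1.08 for Sp9, a transcription factor of D2 neurons. With it removed, the value was -1.46 for Lypd1, 0.65 for Drd2, -0.23 for Penk, 0.82 for Gpr6, 0.44 for Adora2a and 0.48 for Sp9. A test of one gene against another was not run.

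Genes that all medium spiny neurons share had a summed level below saline in set A and within the saline range in set B. All 16 were tested, 0 passed the adjusted threshold, and all 16 had a negative log2 fold change, with a median of -0.69 (all genes 0.08). In set A the median was -1.56 and 16 of 16 had an unadjusted p under 0.05 (all genes 16.6%). In set B it was 0.27 with the set difference removed and -0.12 with it kept, and 0 of 16 had an unadjusted p under 0.05 (all genes 2.69%). The test of set A against set B had an unadjusted p under 0.05 for 15 of the 16 (all genes 14.9%). The summed level was 16890, 27180 and 20120 CPM in saline, 4233 and 10180 CPM in set A, and 19360, 21790 and 20780 CPM in set B. Rasd2, a striatal GTP-binding protein, was at 871, 1343 and 1283 CPM in saline, 140.3 and 384 CPM in set A and 878, 864 and 949 CPM in set B. Ppp1r1b, which encodes DARPP-32, was at 1808, 3036 and 2436 CPM in saline, 239 and 970.4 CPM in set A and 1742, 1665 and 1494 CPM in set B, the only gene of the list below saline in all 5.

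Markers of cholinergic interneurons were the cell type list with the lowest median. Of 10 listed, 9 were tested, and their median log2 fold change was -1.19, with -1.05 in set A and -1.09 and -0.54 in set B. All 9 were negative in the joint fit and in set A, 8 in set B with the set difference removed and 6 with it kept. Lhx8 and Slc5a7 had an unadjusted p under 0.05, 2 of 9 against 2.97% of all genes lower, and 0 passed the adjusted threshold. Lhx8 was near the floor, at 2.45, 0.88 and 0.54 CPM in saline. After withdrawal it was at 0.45 and 0.25 CPM in set A and 3.49, 1.45 and 0.29 CPM in set B. Its log2 fold change was -1.79 in set A but 0.44 in set B with the set difference kept, so its sets did not agree. The summed level was 91.7, 103 and 99.5 CPM in saline, 30.7 and 71.8 CPM in set A and 71.9, 68.2 and 52.6 CPM in set B. The 5 withdrawal libraries were below all saline libraries (two-sided exact permutation p = 0.0357, adjusted p = 0.357 over 20 measures). Slc5a7, the choline transporter, stood at 10.5, 10.2 and 9.25 CPM in saline, 1.46 and 8.98 CPM in set A and 8.84, 7.64 and 4.0 CPM in set B (log2 fold change -1.20 ± 0.57 SE, unadjusted p = 0.0466). Chat, the enzyme of acetylcholine synthesis, was at 18.1, 6.39 and 6.11 CPM in saline, 0.504 and 6.99 CPM in set A and 6.58, 6.40 and 1.43 CPM in set B. Its groups overlapped, and saline replicate 1 alone was far above the withdrawal libraries. How far the share of cholinergic RNA bears on Lypd1 was not tested.

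**Figure D4:**
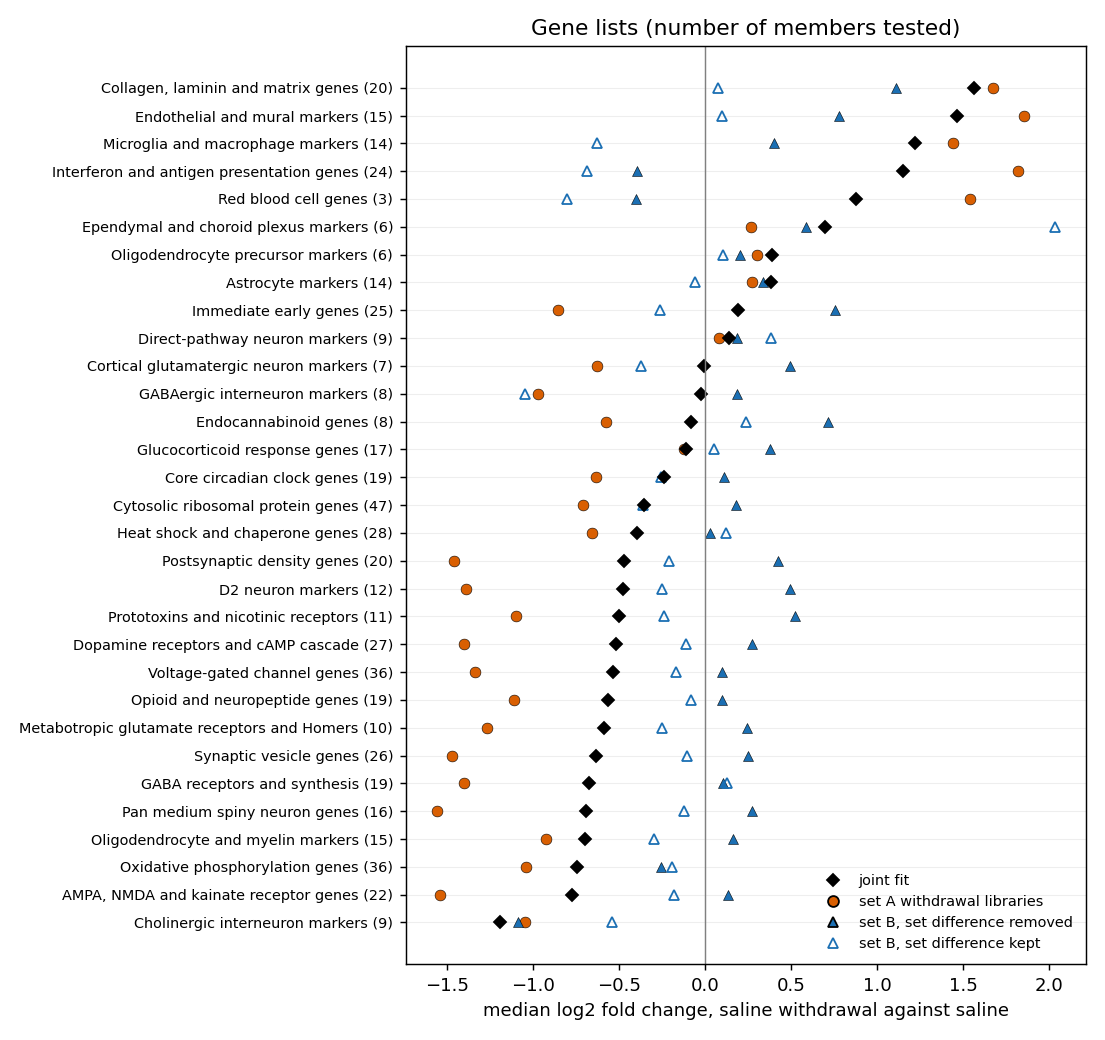
Median log2 fold change of each gene list (number of tested members in brackets) for saline withdrawal against saline: in the joint fit (black diamonds), in set A (orange circles) and in set B with the set difference removed (filled blue triangles) or kept (open triangles). The synaptic vesicle and pan medium spiny neuron lists have set A at -1.47 and -1.56 and set B on either side of 0, whereas the cholinergic list is negative in all 4 values.

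Synaptic genes had lower values in set A than in set B. All 26 synaptic vesicle genes had a negative log2 fold change, with a median of -0.64. The median was -1.47 in set A, where 24 of 26 had an unadjusted p under 0.05 (all genes 16.6%), and 0.25 and -0.10 in set B, where 0 had with the set difference removed (all genes 2.69%). Of the 26, 23 had an unadjusted p under 0.05 in the test of set A against set B (all genes 14.9%). Snap25, a SNARE protein of vesicle fusion, stood at 4419, 6177 and 5143 CPM in saline, 1132 and 1989 CPM in set A and 4756, 5457 and 3845 CPM in set B. Its joint log2 fold change of -1.09 ± 0.48 (SE, unadjusted p = 0.0334) thus came from set A. For the 22 AMPA, NMDA and kainate receptor genes the median was -0.77, with -1.54 in set A and 0.13 and -0.18 in set B.

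Of these 22 glutamate receptor genes, 5 had an unadjusted p under 0.05, all lower, and 6 were below saline in all 5 withdrawal libraries (all genes 3.96%). The 6 were Grin1, Grin2c, Grik3, Grik5, Cacng8 and Cnih2, named after their values were seen. Grin1, the obligatory NMDA receptor subunit, stood at 359, 635 and 373 CPM in saline, 101 and 252 CPM in set A and 206, 214 and 184 CPM in set B. Grik5, a kainate receptor subunit, stood at 195, 317 and 154 CPM in saline, 37.4 and 117 CPM in set A and 88.6, 99.95 and 87.7 CPM in set B. For both, set B was well below saline, but its value was 0.57 and 0.24 once the set difference was removed, against -1.18 and -1.27 with it kept. These 2 genes were therefore also lower in the set B cocaine withdrawal libraries than in those of set A. Grik2 and Gria3, with unadjusted p of 0.0196 and 0.0294, overlapped saline in set B.

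Genes of energy metabolism and translation were counted next. Of 36 nuclear genes of oxidative phosphorylation, 34 had a negative log2 fold change and 8 had an unadjusted p under 0.05, all lower (all genes 2.97%). Their median was -0.74, with -1.04 in set A and -0.26 and -0.19 in set B. Ndufb5, a complex I subunit, stood at 34.1, 36.7 and 34.8 CPM in saline, 12.5 and 14.7 CPM in set A and 29.8, 38.4 and 18.3 CPM in set B (log2 fold change -1.28 ± 0.42 SE, unadjusted p = 0.00604). Set B replicate 3 was low and the other 2 set B libraries lay near saline. The 47 tested cytosolic ribosomal protein genes had a median of -0.36, with -0.71 in set A and 0.18 and -0.36 in set B. In the joint fit 0 of the 47 had an unadjusted p under 0.05 (all genes 2.25% higher and 2.97% lower). In set B with the set difference removed the number was also 0 (all genes 2.69%). Of them 9 were below saline in all 5 libraries (all genes 3.96%), among them Rpl32 at 29.2, 42.1 and 32.3 CPM in saline, 7.17 and 20.2 CPM in set A and 17.7, 26.2 and 10.9 CPM in set B.

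The immediate early genes, which neurons switch on within minutes of activity, gave no common direction. Of 25 tested, 14 had a positive log2 fold change. The median was 0.19, with -0.86 in set A and 0.75 and -0.26 in set B. Egr1 stood at 851, 1069 and 958 CPM in saline, 232 and 324 CPM in set A and 386, 655 and 673 CPM in set B, below saline in all 5 libraries, as were Egr4, Nr4a3 and Dusp6 (4 of 25, all genes 3.96%). With the set difference removed, the set B value of Egr1 was 0.57. Arc overlapped between groups, at 43.7, 46.3 and 40.9 CPM in saline and 22.0, 45.2 and 40.9 CPM in set B. Of 19 core clock genes, Nr1d1 (REV-ERB alpha) stood at 50.6, 75.6 and 72.7 CPM in saline, 46.3 and 27.9 CPM in set A and 28.4, 39.4 and 30.0 CPM in set B, and was below saline in all 5, as was Tef (2 of 19, all genes 3.96%). The log2 fold change of Nr1d1 was -0.63 ± 0.30 (SE, unadjusted p = 0.0486), with -0.83 in set A and -0.33 and -1.02 in set B. The sources used here do not give the time of day of tissue collection. Of 17 glucocorticoid response genes, 7 had a positive log2 fold change, and the median was -0.11. In this list Nr3c1, the glucocorticoid receptor, and Pdk4 were above saline in all 5 (2 of 17, all genes 2.71%). Nr3c1 was at 81.1 to 94.6 CPM in saline and 97.3 to 131 CPM after withdrawal (log2 fold change 0.30 ± 0.25 SE, unadjusted p = 0.243).

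Vascular, matrix, microglial and interferon genes were the 4 lists with the highest medians of the 32, and 0 of their genes passed the adjusted threshold. All 15 endothelial and mural markers had a positive log2 fold change, with a median of 1.46, and 0 of them had an unadjusted p under 0.05. In set A the median was 1.85, and in set B 0.78 and 0.10. The summed level was 4603, 323 and 2961 CPM in saline, 11110 and 5612 CPM in set A and 3362, 1629 and 2043 CPM in set B. Saline replicate 3 was far below the other saline libraries, and set B lay inside the saline range (two-sided exact permutation p = 0.429). For 20 collagen, laminin and matrix genes the median was 1.56, with 1.67 in set A and 1.11 and 0.07 in set B, and Lamc1 had an unadjusted p of 0.0405. For 24 interferon and antigen presentation genes it was 1.15, with 1.82 in set A and -0.40 and -0.69 in set B. For 14 microglia markers it was 1.22, with 1.44, 0.40 and -0.63. Astrocyte markers summed to 379 to 729.8 CPM in saline and 385 to 924 CPM after withdrawal, and oligodendrocyte and myelin markers to 257 to 311 CPM and 167 to 314 CPM. The part of these other cell types in the gene results above was not tested. With the mean of the endothelial, microglia and astrocyte markers as a covariate, the log2 fold change of Lypd1 was -1.99, and with the share of reads outside genes it was -2.05.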

How the data were processed

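TRAP-seq libraries of the dorsal striatum were deposited by the authors as raw read counts per gene symbol, 1 table per library. The submitters' processing notes name STAR 2.0.0e, HTSeq and the build mm10. The sources used here give neither strandedness nor annotation, so reads of overlapping genes on opposite strands may not have been told apart. Of the 26 tables, 10 list 32531 genes and 16 list 32657, and they were joined over 31977 genes (31735 shared symbols and 242 pairs of old and current symbols), which hold 99.5% to 99.9% of the gene counts. HTSeq's entries for reads outside genes and ambiguous reads stayed out of library sizes.

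The 23 immunopurified libraries were fitted together in edgeR 4.0.16 (R 4.3.3; filterByExpr, TMM, quasi-likelihood test) with group and library set as terms (6 coefficients, 17 residual degrees of freedom), and p-values were adjusted by the Benjamini-Hochberg method over 16908 genes. A second fit split the withdrawal groups by set. DESeq2 1.42.0 and limma 3.58.1 (voom) were alternatives, with other normalizations, filters, sets, covariates and left-out libraries. CPM values of the immunopurified libraries use TMM library sizes, and those of the inputs use the joined gene counts without TMM scaling. The permutation tests of library measures used the percentages and summed CPM themselves, without logs. Permutation tests of single genes, whose p-values are not given, used log2 of CPM plus 0.5. Named genes were up to 12 per direction with a mean of at least 5 CPM in the 8 libraries, the same sign in both sets and the lowest p, Drd2, Adora2a, Penk, Gpr6, Drd1, Chat and Lypd1, and up to 4 members per list. The comparison, Lypd1 and all 32 gene lists were chosen with earlier results of these data known. The scripts were tested on simulated data. No within-group pair of 13 had identical values, and all differed by more than sampling noise (chi-square per degree of freedom 11.8 to 256). Gene counts of 3279457 to 14712619 per library set the precision.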

Additional observations from a re-analysis of the deposited data

Results flagged for a closer look

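Of 50 values tested over the 5 saline withdrawal libraries, 5 had 1 library far from the other 4 (Dixon's test, gap over range above 0.71), and in each it was set A replicate 1. Chance alone flags about 1 in 20 such groups. The library's gene counts were 14712619, against a median of 4667440 over the 5. Man2b2 was at 67.8 CPM, with a median of 18 CPM. Adnp was at 0.112 CPM, with a median of 157 CPM, and this library is the only 1 of the 5 with the longer gene table. The summed GABAergic interneuron markers were at 114 CPM, with a median of 54.5 CPM, and the saline libraries ran from 91.4 to 123 CPM. The summed interferon and antigen presentation genes were at 3370 CPM, with a median of 555 CPM, and the saline libraries ran from 99.3 to 1637 CPM.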

How the results depend on the processing

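No alternative other than DESeq2 (6 higher, 1 lower, 3 of the 7 with agreeing sets) and set B alone with the set difference kept (1 higher, in agreement) called a gene. The 3 genes were Lypd1, Adnp and Zfp36, and the 1 gene was Adnp. Adnp and Zfp36 followed the gene table, and withdrawal set A replicate 1 held them at 0.112 and 0 CPM. Their agreement in sign thus came from set A replicate 2 alone, which has the shorter table. Lypd1 stayed negative under every alternative, from -1.46 to -2.77. The counts at an unadjusted p under 0.05 (381 higher, 503 lower) became 596 higher with no filter on low counts, 699 higher in DESeq2, 1795 and 1881 in voom, 324 lower with library 1797 as a set of its own, 1431 and 1882 in a fit of set A only, 691 and 2111 for set A in the split fit, 178 lower for set B with the set difference removed, and 220 higher with the non-neuronal marker score as a covariate; the cause was not tested. With each library left out in turn they ran over 135 to 478 higher and 202 to 667 lower. Non-overlapping genes ran over 585 to 1227 above saline and 821 to 1530 below, where fewer libraries make separation easier by construction. Set B with the set difference removed reversed Drd2 (0.65), Adora2a (0.44) and Gpr6 (0.82), the marker score reversed Drd2 (0.23) and Gpr6 (0.067), and leaving out withdrawal set A replicate 1 reversed Drd2 (0.10) and Gpr6 (0.13), whose values over the left-out libraries ran from -0.57 to 0.10 and from -0.74 to 0.13. With RLE size factors, the median log2 fold changes of the GABAergic, cortical, endocannabinoid and nuclear noncoding lists turned from below to above 0.

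Whether replicate numbers pair the libraries cannot be decided from the 3 same-numbered pairs of saline and withdrawal libraries. Their deviations correlated at -0.261 to 0.458 over genes, with a median of 0.246, against a median of -0.11 for other pairs. The fit with the replicate block called 0 genes, with 841 at an unadjusted p under 0.05 and Lypd1 at -2.17. Low depth limits genes under about 1 CPM in the smallest library.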
